A study of Mus musculus with 16 samples.

Results

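The comparison set 8 cortex libraries of BK-deficient mice against 8 of wild type littermates, taking both sleep conditions together, with the condition as a covariate. All 16 libraries of the study entered it. Of 22880 genes in the deposited table, 14278 reached 10 normalized counts in 8 or more libraries and were tested. A normalized count is a gene's read count divided by 1 factor per library. Total RNA was sequenced from mice on the background F1 C57Bl6/J x Sv129. The 4 groups of 4 libraries were BK knockout after 4 h of sleep deprivation by gentle handling (KO_SD), undisturbed BK knockout (KO_BL), and their wild type littermates after sleep deprivation (WT_SD) and undisturbed (WT_BL). All tissue was taken at zeitgeber time 4, 4 h after lights came on. The sources used here do not give the age or sex of the mice, the knockout allele or the part of the gene that it removes. Mice were housed in groups of 2, and which of them shared a cage or litter is not given either. The labels name no cell type to which the loss of BK was limited.

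BK channels are large-conductance potassium channels that open when the membrane is depolarised and intracellular calcium rises together. The pore is made by Kcnma1, and beta and gamma subunits set its calcium and voltage sensitivity in different tissues. In neurons the channel shortens the action potential, shapes the fast afterhyperpolarisation and limits transmitter release at some terminals, where it sits close to voltage-gated calcium channels.

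Reads recovered from the normalized counts numbered 8763826 in the shallowest library, KO_BL 1, and 30504105 in the deepest, KO_SD 2. The libraries of KO_SD varied most among themselves, with a median SD over genes of 0.28 on the log2 scale, against 0.17 in WT_SD. At baseline these medians were 0.18 in KO_BL and 0.15 in WT_BL. Markers of cortical excitatory neurons summed to 2617.82 to 3759.63 FPKM in KO libraries and 2820.38 to 4044.08 FPKM in WT libraries. FPKM is a level per gene length and library size. KO_SD 1 and KO_SD 4 lay at an end of the range in many lists. KO_BL 1, KO_SD 1 and KO_SD 4 were left out together in an alternative whose values stand beside the results that they moved most. That alternative drops KO libraries only. All WT libraries stayed in, among them WT_BL 1, which held the 887.85 FPKM of striatal markers given below. How far this uneven choice sets the moved values was not tested. Markers of tissue next to the cortex were also present and uneven. Striatal markers summed to 177.45 to 731.74 FPKM in KO and 173.75 to 887.85 FPKM in WT libraries. Choroid plexus and ependyma markers summed to 5.58 to 52.16 FPKM in KO and 5.23 to 481.3 FPKM in WT libraries. No marker of these lists was at 0 in all libraries. Fewer cells of a type and less RNA per cell cannot be told apart in these bulk libraries.

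Loss of BK was not accompanied by a change in any single transcript that passed the test. In limma with Benjamini-Hochberg adjustment 0 of 14278 genes were called at an adjusted p under 0.05 (0.0%), and the smallest adjusted p was 0.806. At an unadjusted p under 0.05 there were 475 genes (3.33%), of which 221 had a higher mean in KO (1.55%) and 254 a lower one (1.78%). At that threshold 713.9 genes would be expected if p-values were uniform. The number depended on the setting and fell on both sides of that value. Over the alternatives it ran from 324 without KO_BL replicate 1 to 998 in limma with a weight per library. On recovered reads, edgeR's quasi-likelihood test called 0 genes too, with 488 at an unadjusted p under 0.05. DESeq2 on the same reads called 6 genes (0.042%), Stbd1, Scg2, Cbln2 and Srxn1 with higher means in KO and F5 and 8430408G22Rik with lower ones. limma with a weight per library called 2 of these, Stbd1 and Cbln2 (0.014%).

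The same fit gave a different picture for its other term. For sleep deprivation against baseline, limma called 1692 of the 14278 genes (11.9%), 870 with a higher and 822 with a lower mean in sleep-deprived libraries, and 4079 had an unadjusted p under 0.05 (28.6%). Striatal markers, uneven between libraries, had a median log2 difference of -0.99 for this term, and 8 of 13 were called. With the striatal marker level of each library as a covariate, 296 genes were called. The median size of the log2 difference over genes was 0.14 for sleep deprivation and 0.08 for genotype. More than 1 on the log2 scale separated sleep-deprived from baseline libraries in 144 genes, and KO from WT libraries in 14 genes. The 14 genes had a median level of 54.4 normalized counts, against 495.9 over all genes tested.

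**Figure D1:**
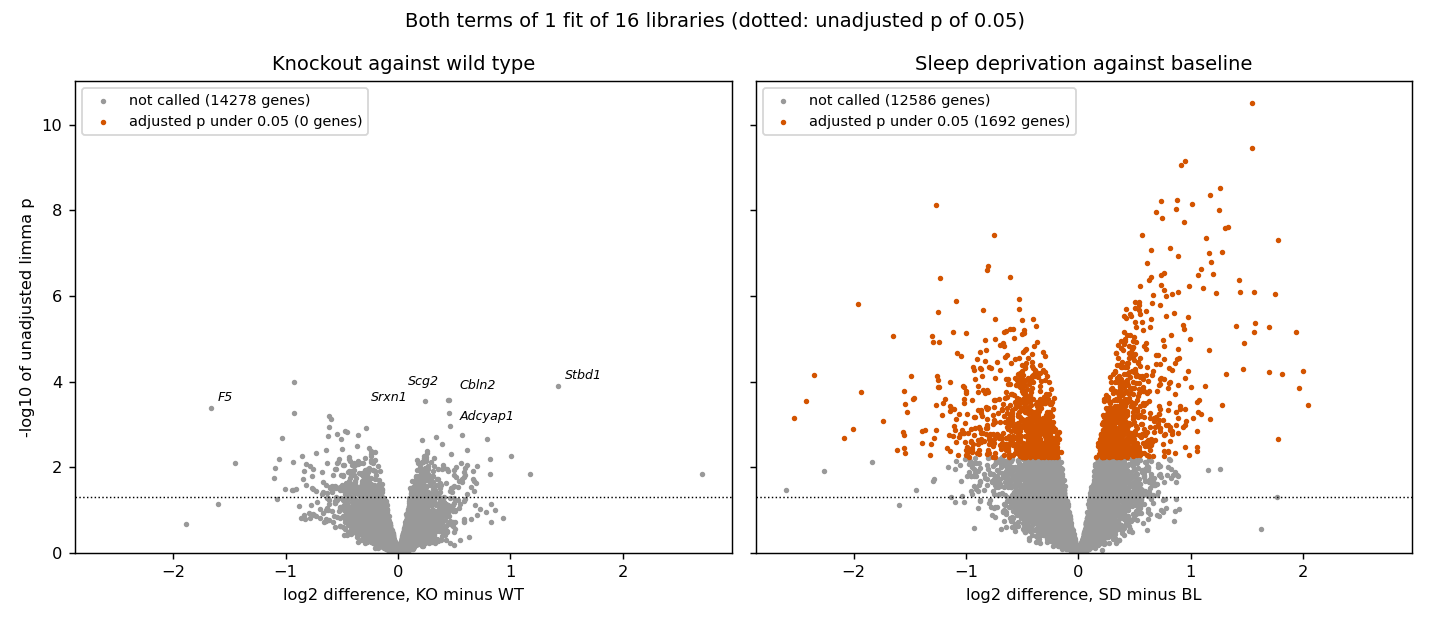
Log2 difference (x axis) against the negative log10 of the unadjusted limma p (y axis) for every gene tested, for knockout against wild type (left) and sleep deprivation against baseline (right), from 1 fit of the same 16 libraries. Orange points passed an adjusted p of 0.05: 0 genes on the left and 1692 on the right.

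How large a genotype difference the libraries could have missed is given by the intervals. The median standard error of a gene's log2 difference was 0.11. The 95% confidence interval lay wholly within 0.5 on either side of zero, a 1.414-fold change, for 81.1% of the genes. It lay within 1 on either side, a 2-fold change, for 97.9% of genes, and within 0.25 for 32.5%. Over all genes the median log2 difference was 0.0017, and 50.6% of genes had a higher mean in KO.

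Kcnma1 itself lies on the minus strand of chromosome 14, from 23289431 to 24014491 (GRCm38), and its levels overlapped between the genotypes. At baseline its normalized counts were 2155, 1424, 2046 and 1600 in KO_BL 1 to 4, against 1779, 1317, 1888 and 1151 in WT_BL 1 to 4. After sleep deprivation they were 2005, 1113, 801.6 and 432.5 in KO_SD 1 to 4, against 1108, 823.5, 912.8 and 1584 in WT_SD 1 to 4. The groups overlapped in both conditions, and the highest and the lowest library were both KO. Its log2 difference was 0.03 ± 0.23 (SE), with a 95% interval of -0.47 to 0.52 (limma adjusted p = 0.996). Reads from undeleted exons would still be counted, so the genotype labels could not be checked on this gene, and each direction given here rests on them.

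The genes listed as accessory subunits were described next, because their products are known or reported to associate with this channel. Kcnmb4, the beta subunit typical of neurons, stood at 46.2 ± 10.9 FPKM in KO and 48.7 ± 9.76 FPKM in WT libraries (SD, n = 8 each), and its log2 difference was -0.08 ± 0.15 (SE). Lingo1, a neuronal membrane protein reported to associate with BK, stood at 102.8 ± 27.4 and 115.2 ± 23.6 FPKM in KO and WT. Its log2 difference was -0.17 ± 0.16 (SE). The gamma subunit gene Lrrc55 had 11.9 ± 2.52 FPKM in KO and 10.4 ± 2.4 FPKM in WT, a log2 difference of 0.20 ± 0.14 (SE). Lrrc38, another gamma subunit gene, had 1.07 ± 0.167 FPKM in KO and 0.936 ± 0.251 FPKM in WT, and Kcnmb2 had 1.71 ± 0.362 FPKM in KO and 1.67 ± 0.292 FPKM in WT. None of the 5 was called, and the groups of each overlapped.

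Kcnmb1, the beta subunit best known from smooth muscle, was the 1 of 7 tested genes of this list, Kcnma1 included, with an unadjusted p under 0.05. It was near the filter, at 6.68, 9.08, 6.07 and 9.36 normalized counts in KO_BL 1 to 4, against 19.7, 16.6, 13.98 and 13.97 in WT_BL 1 to 4. After sleep deprivation the values were 14.1, 14.6, 13.4 and 11.1 in KO_SD 1 to 4, against 12.0, 12.3, 16.8 and 19.4 in WT_SD 1 to 4. The groups were apart at baseline and overlapped after sleep deprivation. The log2 difference over both conditions was -0.56 ± 0.20 (SE, limma adjusted p = 0.977). Kcnmb3, Lrrc26 and Lrrc52 had at most 2.67 normalized counts in any library and were not tested.

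Among the 20 genes with the smallest p-values, the largest difference upward was that of Stbd1 (ENSMUSG00000047963, chromosome 5, 92603041 to 92606579, plus strand, GRCm38), which encodes a glycogen-binding protein. The 20 leave out placeholder symbols such as 8430408G22Rik, whose p was the smallest of all genes. None of these 20 genes passed the limma test, with adjusted p from 0.806 to 0.977. Of them 9 had a higher and 11 a lower mean in KO. Stbd1 had 97.96, 94.1, 206.5 and 100.1 normalized counts in KO_BL 1 to 4, against 29.5, 32.2, 29.6 and 25.3 in WT_BL 1 to 4. After sleep deprivation it had 80.0, 79.9, 135.5 and 44.5 in KO_SD 1 to 4, against 92.0, 53.4, 26.7 and 25.6 in WT_SD 1 to 4. All 4 baseline KO libraries lay above all 4 WT ones, while after sleep deprivation WT_SD 1 lay above 3 of the 4 KO libraries. It was higher by 1.42 ± 0.29 (SE) on the log2 scale, a 2.68-fold higher level in KO (95% interval 0.81 to 2.04 on the log2 scale, limma adjusted p = 0.806). In DESeq2 its adjusted p was 0.0144.

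The other 8 genes with a higher mean included Scg2, Cbln2, Adcyap1 and Srxn1. Scg2 (chromosome 1, 79434669 to 79440120, minus strand, GRCm38) encodes secretogranin II, a cargo and precursor protein of dense-core vesicles. It had 6666, 7009, 4954 and 4685 normalized counts in KO_BL 1 to 4, against 5018, 4310, 4221 and 3732 in WT_BL 1 to 4. It had 10320, 7602, 7268 and 7981 in KO_SD 1 to 4, against 5611, 5731, 6890 and 5523 in WT_SD 1 to 4. The groups overlapped at baseline and were apart after sleep deprivation, and 5 of 8 KO libraries were above the highest WT library. Scg2 was 1.36-fold higher in KO, a log2 difference of 0.45 ± 0.10 (SE, limma adjusted p = 0.806).

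Cbln2 (chromosome 18, 86711110 to 86718283, plus strand, GRCm38) encodes a cerebellin, a secreted organiser of synapses that bridges neurexins and postsynaptic receptors. It had 928.4, 944.3, 841 and 847 normalized counts in KO_BL 1 to 4, against 615.1, 680.7, 711.1 and 712.7 in WT_BL 1 to 4. It had 1891, 1570, 1289 and 1028 in KO_SD 1 to 4, against 829.3, 978, 1050 and 1094 in WT_SD 1 to 4. The genotypes were apart at baseline, and KO_SD 4 alone lay within the WT range after sleep deprivation. Its level was 1.37-fold higher in KO, a log2 difference of 0.45 ± 0.10 (SE, limma adjusted p = 0.806).

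Adcyap1 (chromosome 17, 93199017 to 93206537, plus strand, GRCm38) encodes the neuropeptide PACAP. Its normalized counts were 382.9, 417.7, 391.6 and 342.8 in KO_BL 1 to 4, against 313.5, 330, 320.6 and 279.5 in WT_BL 1 to 4. They were 607.1, 611.8, 480.3 and 479.5 in KO_SD 1 to 4, against 388, 411.7, 405.9 and 245.8 in WT_SD 1 to 4. KO was above WT throughout each condition, with a log2 difference of 0.45 ± 0.11 (SE, limma adjusted p = 0.977).

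Srxn1 (chromosome 2, 152105516 to 152111376, plus strand, GRCm38) encodes sulfiredoxin, which restores oxidised peroxiredoxins, a small difference beside those above. It had 2295, 2290, 2082 and 2122 normalized counts in KO_BL 1 to 4, against 1937, 1822, 2001 and 1883 in WT_BL 1 to 4. It had 2479, 2370, 2515 and 2736 in KO_SD 1 to 4, against 1988, 1976, 2102 and 2226 in WT_SD 1 to 4. The genotypes were apart in both conditions, with a log2 difference of 0.24 ± 0.05 (SE, limma adjusted p = 0.806), a 1.18-fold higher level in KO. With a trend with gene GC content, described further on, removed it was 0.38, with a larger unadjusted p of 0.00298.

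The other 4 genes with a higher mean were Hs3st5, an enzyme of heparan sulfate sulfation (log2 difference 0.46), the kelch-like gene Klhl1 (0.57), the cAMP-responsive transcription factor gene Crem (0.34) and the small heat shock protein gene Hspb3 (0.80). Hs3st5 was apart only after sleep deprivation, at 88.2 to 110.8 normalized counts in KO_SD, against 52.0 to 71.3 in WT_SD. Crem was at 0.19 without KO_BL 1, KO_SD 1 and KO_SD 4. Hspb3 was apart only at baseline, at 39.6 to 53.4 normalized counts in KO_BL, against 13.1 to 37.8 in WT_BL.

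**Figure D2:**
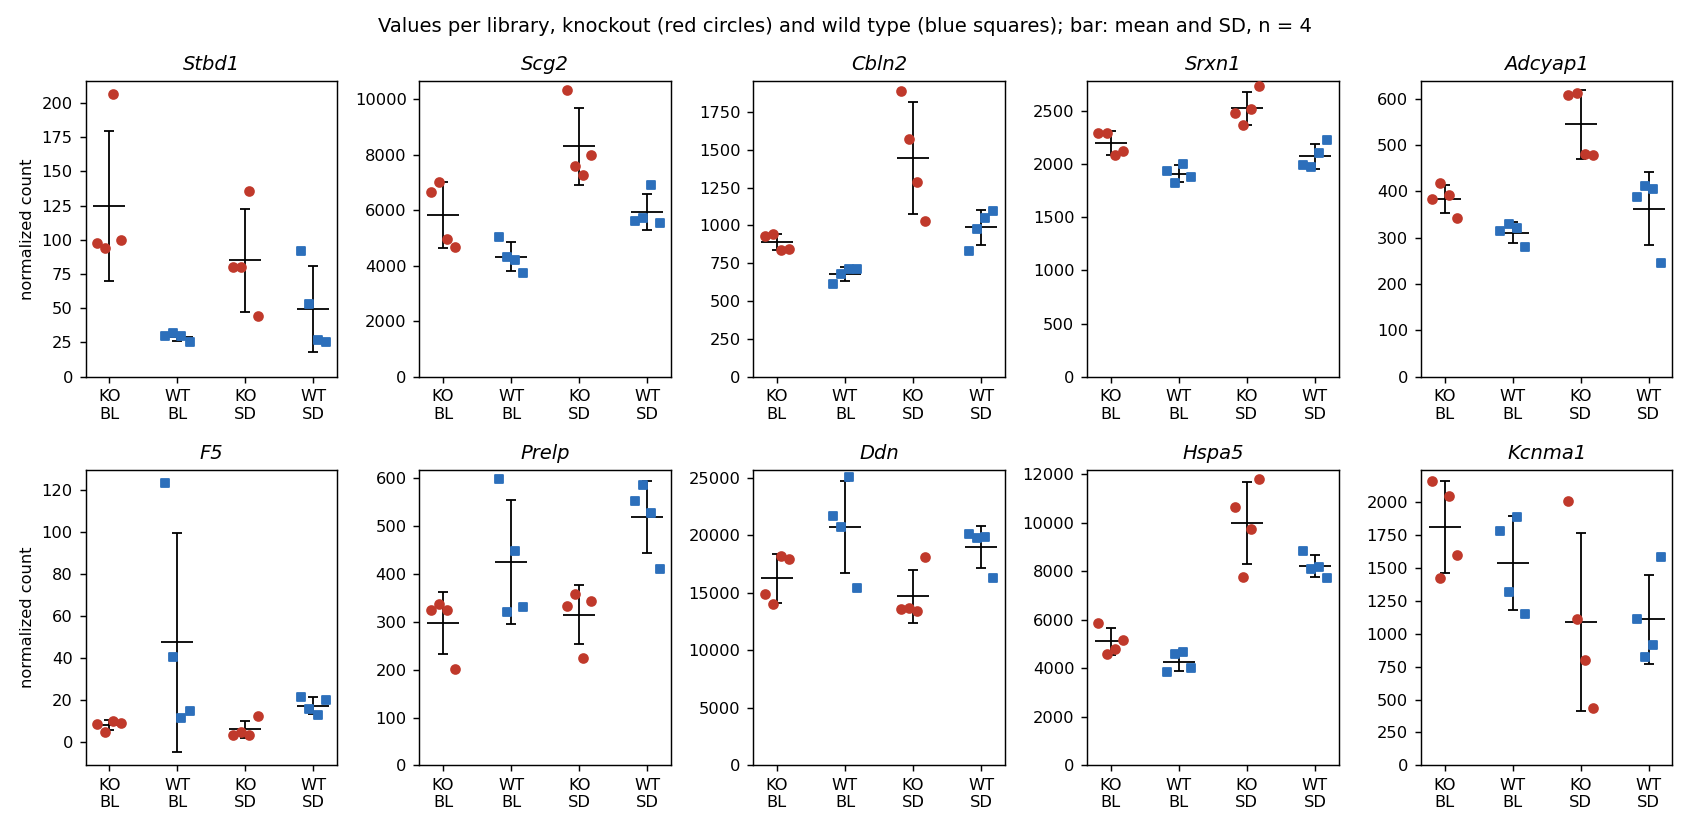
Normalized counts (y axis) of 10 genes in each library, with knockout (red circles) left of wild type (blue squares) at baseline (BL) and after sleep deprivation (SD). Bars give the mean and SD of 4 libraries. Srxn1 and Adcyap1 do not overlap between genotypes in either condition, whereas Kcnma1 overlaps in both.

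Among the 11 genes with a lower mean, F5, the gene of coagulation factor V (chromosome 1, 164151838 to 164220277, plus strand, GRCm38), had the largest difference, at low counts. It had 8.91, 4.95, 10.1 and 9.36 normalized counts in KO_BL 1 to 4, against 123.4, 40.5, 11.5 and 14.9 in WT_BL 1 to 4. It had 3.53, 5.07, 3.36 and 12.4 in KO_SD 1 to 4, against 21.3, 15.6, 12.9 and 20.2 in WT_SD 1 to 4. The genotypes were apart in both conditions, but their nearest libraries differed little, at 12.4 in KO_SD 4 and 12.9 in WT_SD 3. Its log2 difference was -1.67 ± 0.39 (SE, limma adjusted p = 0.977), and it was -1.35 without WT_BL 1. WT_BL 1 and WT_BL 2, the 2 libraries with the most F5, held 10770 and 2922 normalized counts of Ttr, the main transcript of choroid plexus. WT_SD 4 held 5435 of Ttr and 20.2 of F5. Their part in the F5 difference was not tested.

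Ddn, the gene of the postsynaptic protein dendrin, was the most abundant of the 11. It had 14860, 13990, 18230 and 17900 normalized counts in KO_BL 1 to 4, against 21650, 20670, 25050 and 15400 in WT_BL 1 to 4. It had 13550, 13650, 13450 and 18110 in KO_SD 1 to 4, against 20120, 19730, 19820 and 16250 in WT_SD 1 to 4. In each condition 1 WT library lay within the KO range, and the log2 difference was -0.36 ± 0.10 (SE, limma adjusted p = 0.977). It was -0.22 once the GC trend was removed.

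The matrix proteoglycan gene Prelp averaged 306.1 ± 58.6 normalized counts in KO and 471.6 ± 110 in WT (SD, n = 8 each), a log2 difference of -0.61. The calcium-binding protein gene Cabp7 averaged 655.8 ± 203 in KO and 1037 ± 403 in WT, with a log2 difference of -0.62. The mitochondrial acetyl-CoA synthetase gene Acss1 averaged 448.8 ± 38.5 in KO and 548.5 ± 53.9 in WT, with a log2 difference of -0.29 and 7 of 8 KO libraries below every WT library. Hopx, an atypical homeodomain gene, averaged 418.4 ± 125 in KO and 564 ± 77.4 in WT, a log2 difference of -0.47. The other 5, all at lower levels, were Tmem114 (-0.92), Tmc6 (-0.61), Icosl (-0.60), Gpc2 (-0.54, from 1 of the 2 rows with that symbol) and Sypl2 (-0.45). In Tmc6, too, 7 of 8 KO libraries were below every WT library, and its difference was -0.38 without KO_BL 1, KO_SD 1 and KO_SD 4.

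Complete separation of the 16 libraries by genotype was seen in 3 genes (0.021% of those tested), which fall outside the rule for naming genes and are given because of this count. The transcript 8430408G22Rik (chromosome 6, 116650609 to 116652794, plus strand, GRCm38) had the smallest p of all genes. It had 13.4, 20.6, 18.2 and 17.3 normalized counts in KO_BL 1 to 4, against 26.2, 22.8, 25.5 and 26.2 in WT_BL 1 to 4. It had 15.3, 16.5, 16.8 and 8.65 in KO_SD 1 to 4, against 36.0, 29.6, 45.5 and 35.7 in WT_SD 1 to 4. Every KO library lay below every WT library, and the log2 difference was -0.93 ± 0.19 (SE, limma adjusted p = 0.806). Slc35e3, a solute carrier family gene, averaged 477.6 ± 22.8 normalized counts in KO and 423.5 ± 17.3 in WT (SD, n = 8 each), and its log2 difference was 0.17 ± 0.06 (SE). Pgap2, which acts in the maturation of GPI anchors, averaged 242 ± 23.2 normalized counts in KO and 280.6 ± 10.9 in WT, with a log2 difference of -0.22 ± 0.07 (SE). With Srxn1, F5 and Adcyap1 there were 6 genes (0.042%) whose genotypes were apart in both conditions in 1 direction. Among this many genes some are apart by chance alone. Counts of genes apart were not compared with those from shuffled genotype labels. They are descriptions, and no excess over chance is claimed for them.

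The baseline and sleep-deprived groups share no library, so their differences can be set side by side. All 20 genes of smallest p had the same sign in both, which is partly fixed by their choice on the pooled value. Without KO_BL 1, KO_SD 1 and KO_SD 4 all 20 kept their direction and an unadjusted p under 0.05. The remaining libraries are among those on which the 20 were chosen, so this too is partly fixed. Over all 14278 genes, 61.2% had the same sign in both conditions. The Spearman correlation of the baseline and sleep-deprived differences across genes was 0.25, given as a description since genes are not independent. Both differences leaned the same way with the GC content of the gene, described further on. The part of this lean in the shared signs and the correlation was not tested. No overlap between genotypes was seen in 255 genes at baseline (1.79%) and in 189 after sleep deprivation (1.32%).

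**Figure D3:**
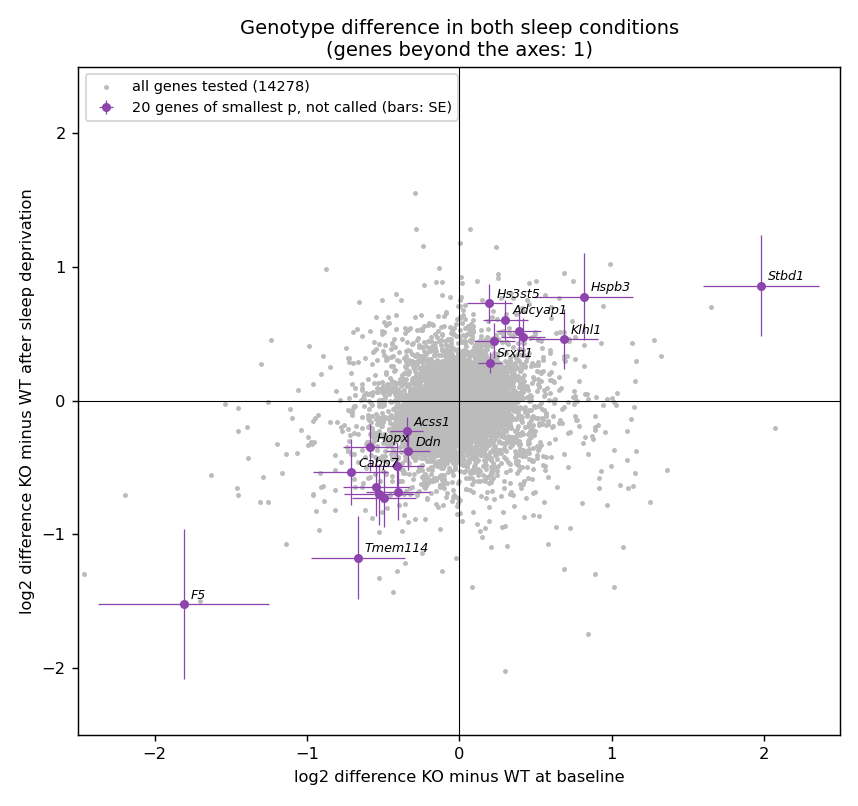
Log2 difference KO minus WT at baseline (x axis) and after sleep deprivation (y axis) for all genes tested (grey). Purple points with standard errors are the 20 genes of smallest p without placeholder symbols, 12 of which carry their names. The 20 lie at the upper right and lower left, with Stbd1 and F5 farthest from the centre.

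Whether the genotype difference itself changed with sleep deprivation was asked by the product term of the fit. The interaction called 0 genes in limma (0.0%), with 146 at an unadjusted p under 0.05 (1.02%), and edgeR and DESeq2 also called 0, with 160 and 169 at that unadjusted threshold. The 3 genes with the smallest interaction p had opposite signs in the 2 conditions, which is partly fixed by their choice on this term. Ldb3, a Z-line protein gene of muscle, had 167, 186.5, 181.2 and 141.9 normalized counts in KO_BL 1 to 4, against 90.7, 107.9, 74.0 and 124 in WT_BL 1 to 4. After sleep deprivation it had 114.1, 139.5, 148.9 and 158.2 in KO_SD 1 to 4, against 152, 155.3, 148.5 and 181.4 in WT_SD 1 to 4. Its genotypes were apart at baseline and overlapped after sleep deprivation. KO minus WT on the log2 scale was 0.78 at baseline and -0.19 after sleep deprivation. Omd, a matrix proteoglycan gene, had a difference of 1.07 at baseline and -1.10 after sleep deprivation, and Sult1a1, a sulfotransferase gene, had 0.91 at baseline and -0.58 after sleep deprivation.

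Other potassium and calcium channels were followed because they could share the tasks of BK. Of 42 tested voltage-gated potassium channel and accessory genes, 25 had a higher mean in KO, with a median log2 difference of 0.05, against 0.0017 over all genes, and 3 had an unadjusted p under 0.05. Kcnip4, an accessory protein of A-type channels, had 1612, 1695, 1448 and 1528 normalized counts in KO_BL 1 to 4, against 1184, 1491, 1319 and 1459 in WT_BL 1 to 4. It had 1695, 1546, 1541 and 1744 in KO_SD 1 to 4, against 1451, 1393, 1408 and 1324 in WT_SD 1 to 4. All KO libraries but KO_BL 3 were above all WT libraries, and the log2 difference was 0.22 ± 0.06 (SE, limma adjusted p = 0.977). Kcnip1, of the same family, had a log2 difference of 0.25 ± 0.08, and Kcng2, a modifier subunit, one of -0.48 ± 0.17 (SE). Kcnip1 was at 0.16 without KO_BL 1, KO_SD 1 and KO_SD 4, and Kcng2 at -0.30 with the GC trend removed.

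The calcium-activated SK channel genes Kcnn1, Kcnn2 and Kcnn3 had differences of -0.09, -0.15 and -0.06 on the log2 scale, and Kcnn1 was at -0.0177 with the GC trend removed. The Slo family relatives of BK, the sodium-activated channel genes Kcnt1 and Kcnt2, had log2 differences of -0.01 ± 0.12 and 0.03 ± 0.13 (SE), and Kcnu1, the gene of the pH-sensitive relative, had one of 0.12 ± 0.11 (SE). Among 18 voltage-gated calcium channel genes 12 had a lower mean, with a median of -0.05, which was 0.0055 with the GC trend removed and -0.0031 without KO_BL 1, KO_SD 1 and KO_SD 4. Of these Cacna1h, a T-type channel gene of 60.9% GC, had the smallest p, at -0.27 ± 0.12 (SE). It was at -0.11 with the GC trend removed and at -0.12 without the same 3 libraries. Of the 24 genes listed as calcium sources or partners of BK, 11 had a higher and 13 a lower mean. Among 22 glutamate receptor genes 14 had a lower mean, with a median of -0.07 that was -0.0135 with the GC trend removed. Among 18 genes of GABA receptors and synthesis 11 had a higher mean, with a median of 0.05 that was 0.0207 without these libraries. Every one of these genes had an adjusted p above the threshold in limma.

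Chaperones and folding enzymes of the endoplasmic reticulum were mostly higher in KO, by small amounts. Of 19 tested members 18 had a higher mean in KO, with a median log2 difference of 0.13, and 4 had an unadjusted p under 0.05. Hspa5, the gene of the chaperone BiP (chromosome 2, 34771970 to 34777547, plus strand, GRCm38), had 5886, 4589, 4813 and 5170 normalized counts in KO_BL 1 to 4, against 3864, 4572, 4691 and 3999 in WT_BL 1 to 4. It had 10650, 7779, 9755 and 11790 in KO_SD 1 to 4, against 8830, 8100, 8172 and 7736 in WT_SD 1 to 4. The genotypes overlapped in both conditions, with KO_SD 2 below 3 WT libraries. Hspa5 had a log2 difference of 0.26 ± 0.08 (SE, limma adjusted p = 0.977). The disulfide isomerase genes Pdia3 and Pdia4 had differences of 0.18 and 0.17, and Hsp90b1, the gene of GRP94, one of 0.17. Only Sec61b, a subunit of the translocon, had a lower mean in KO, by -0.06 on the log2 scale.

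Without KO_BL 1, KO_SD 1 and KO_SD 4 the median of the list was 0.06, and the Hspa5 difference was 0.14 (unadjusted p = 0.0584). Pdia3 was then at 0.0524, Pdia4 at 0.0653 and Hsp90b1 at 0.0413, and none of the 4 had an unadjusted p under 0.05. The mean deviation of the list's genes from the average library was highest in KO_SD 4 (0.53). In the same fit 14 of the 19 genes were called for sleep deprivation, with a median log2 difference of 0.54. The median genotype difference of the list was 0.08 at baseline and 0.17 after sleep deprivation, where KO_SD was the group with the widest spread.

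Some promoters of these chaperone genes hold a known control element, the endoplasmic reticulum stress response element. This element is CCAAT, then 9 bases of any kind, then CCACG. It was searched on both strands in RefSeq windows of 250 bases before to 50 after each gene's start (GRCm38.p6). It occurred in 7 of the 17 list genes matched to a window (41.2%), against 0.168% of the 10723 tested genes with a window and 0.137% of all 27025 genes. This share is a property of the genes put on the list and not a result about genotype. The sites are shown because they mark which of the list's members carry the element. Capitals mark the fixed letters, and each site is read 5′ to 3′ on the strand that holds the match.

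Hspa5, chr2:34772025-34772043, plus strand: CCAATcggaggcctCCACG
Hsp90b1, chr10:86705638-86705656, minus strand: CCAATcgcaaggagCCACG
Hsp90b1, chr10:86705533-86705551, plus strand: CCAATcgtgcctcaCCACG
Pdia6, chr12:17266491-17266509, plus strand: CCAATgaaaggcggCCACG
Calr, chr8:84847075-84847093, plus strand: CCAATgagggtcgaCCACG
Canx, chr11:50325800-50325818, minus strand: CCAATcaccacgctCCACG
Dnajc3, chr14:118937827-118937845, plus strand: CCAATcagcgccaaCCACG
Creld2, chr15:88819520-88819538, minus strand: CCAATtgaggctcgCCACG

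The 7 genes had log2 differences of 0.26 (Hspa5), 0.17 (Hsp90b1), 0.11 (Pdia6), 0.13 (Calr), 0.08 (Canx), 0.13 (Dnajc3) and 0.13 (Creld2), all higher in KO and all uncalled. Of the 19 tested members of the list 18 were higher in KO, so this direction was not particular to the 7. Without KO_BL 1, KO_SD 1 and KO_SD 4 the 7 differences ran from -0.022 for Canx to 0.14 for Hspa5. The Hspa5 site overlaps an exon in GENCODE M21, and the other 7 sites do not. A match of letters is a description and not evidence of binding. Among the 20 genes of smallest p, 17 were matched to a window and 0 held this element. The cAMP response element TGACGTCA was found in 1 of them, Scg2 (5.88%, against 3.52% of tested genes and 2.03% of all genes with a window). The element's site with its flanks overlaps an exon in GENCODE M21. With 10 bases on each side it reads, in capitals for the element, on the minus strand at chr1:79440077-79440104:

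Scg2: gctgagccggTGACGTCAgcgtggaatg

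Genes that neurons switch on with activity were split in direction. Of 39 tested immediate early genes 19 had a higher and 20 a lower mean in KO, with a median log2 difference of -0.01. Crem, Bdnf, the gene of a neurotrophin, and Homer1, a postsynaptic scaffold gene, had an unadjusted p under 0.05. Bdnf had 694.6, 468, 620.4 and 571.9 normalized counts in KO_BL 1 to 4, against 497.1, 474.2, 515.5 and 435 in WT_BL 1 to 4. It had 1826, 1320, 1029 and 1345 in KO_SD 1 to 4, against 1027, 1140, 1236 and 684.6 in WT_SD 1 to 4. The groups overlapped in both conditions, and the log2 difference was 0.36 ± 0.13 (SE, limma adjusted p = 0.977). Homer1 had a log2 difference of 0.33 ± 0.14 (SE), with its highest value, 16540 normalized counts, in KO_SD 1 and at most 8277 in any WT library. Without KO_BL 1, KO_SD 1 and KO_SD 4 the differences were 0.21 for Bdnf (unadjusted p = 0.11) and 0.18 for Homer1, and the list median was 0.0424.

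Clock genes had a median log2 difference of 0.01 over 21 members. The repressor genes Nr1d1 and Cry1 had differences of -0.29 ± 0.11 and 0.17 ± 0.07 (SE), neither called. They were -0.0912 and 0.0879 without KO_BL 1, KO_SD 1 and KO_SD 4, each with an unadjusted p above 0.05. Of 17 glucocorticoid-responsive genes 12 had a lower mean in KO, with a median of -0.09. The metallothionein gene Mt2 averaged 910.8 ± 378 normalized counts in KO and 1276 ± 533 in WT (SD, n = 8 each), a log2 difference of -0.50 ± 0.19 (SE), which was -0.33 without those libraries. Cdkn1a, a cell cycle inhibitor gene on that list, had one of 0.25 ± 0.11 in the other direction. Oxidative phosphorylation genes (24 of 36 higher, median 0.06) and vesicle release genes (19 of 27 higher, median 0.03) had medians within 0.1 of zero. All 7 tested transcripts of the mitochondrial genome had a lower mean, with a median of -0.03 and none at an unadjusted p under 0.05.

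Of the 35 lists, the hippocampal and striatal markers had the medians farthest from zero. All 13 tested striatal markers had a higher mean in KO, with a median log2 difference of 0.29 and none at an unadjusted p under 0.05. Of 13 hippocampal markers 11 had a lower mean, with a median of -0.37 and 4 at an unadjusted p under 0.05, among them Grp (-0.85 ± 0.27) and Fibcd1 (-0.82 ± 0.28, SE). The mean deviation of the striatal list ran from -1.27 to 1.5 in KO and from -1.21 to 1.70 in WT libraries. For the hippocampal list it ran from -0.73 to 0.61 in KO and from -0.61 to 1.18 in WT libraries, so both lists overlapped widely between genotypes. With the striatal deviation of each library as a covariate, 0 genes were called for genotype, and 296 for sleep deprivation.

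Within the cortical lists, the excitatory neuron markers Neurod2 (-0.28), Camk2a (-0.19) and Fezf2 (-0.26) had lower means in KO at an unadjusted p under 0.05, and 8 of 10 markers were lower (median -0.11). That median was -0.0114 without KO_BL 1, KO_SD 1 and KO_SD 4, and with the GC trend removed -0.0474. Under either setting none of the 3 genes had an unadjusted p under 0.05. The interneuron markers Gad1 (0.25 ± 0.09), the gene of a GABA-synthesising enzyme, and Vip (0.24 ± 0.09, SE), a neuropeptide gene, had higher means, as did 14 of 20 members (median 0.10). Gad1 was at 0.15 and Vip at 0.17 without those 3 libraries. Of 10 oligodendrocyte precursor markers 8 were lower (median -0.16), with Gpr17 at -0.24 and Olig1 at -0.32. Olig1, of 61.0% GC, was at -0.16 with the GC trend removed and at -0.17 without the 3 libraries. Of 14 astrocyte markers 13 were lower, with a median of -0.04, and of 16 endothelial and mural markers 14 were lower, with a median of -0.10 that was -0.0499 without them. In none of the 35 lists was a gene called by limma, as for all genes tested (0.0%).

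**Figure D4:**
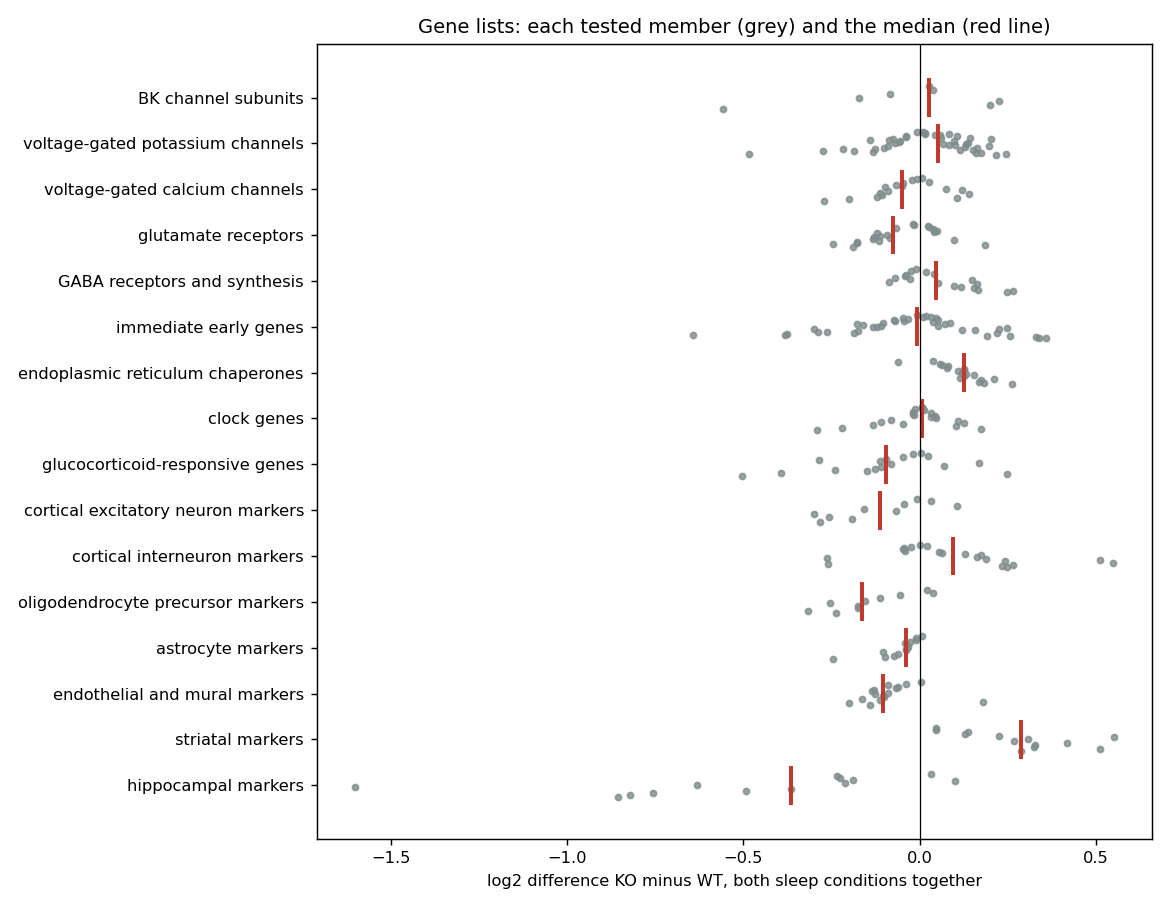
Log2 difference KO minus WT (x axis) of every tested member (grey points) of 16 gene lists (rows), with the list median as a red line. The medians run from -0.37 for hippocampal markers to 0.29 for striatal markers, and endoplasmic reticulum chaperones lie to the right of zero except for 1 member.

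The genotype difference moved with the GC content of the gene. Across the 14278 genes its Spearman correlation with GC content was -0.49, and with gene length 0.05, both as descriptions. In 5 bins of genes from low to high GC content the median log2 difference was 0.06, 0.04, 0.01, -0.03 and -0.11, with nearly the same values at baseline and after sleep deprivation. Single libraries leaned either way. The correlation of a library's deviation with GC content ran from -0.64 in KO_SD 1 to 0.42 in KO_BL 4 among KO libraries, and from -0.43 in WT_SD 1 to 0.48 in WT_SD 2 among WT libraries. The 9 genes of smallest p with a higher mean had a median GC content of 49.2%, the 11 with a lower mean 54.9%, and all genes tested 50.9%.

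With the GC trend of each library removed, 0 genes were called for genotype and 2652 for sleep deprivation. Of the 20 genes of smallest p all kept their direction under this setting, and 19 kept an unadjusted p under 0.05, Ddn being the exception. They had been chosen for their p in the same libraries. The median of the chaperone list was 0.11, that of the striatal list 0.30 and that of the hippocampal list -0.39.

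**Figure D5:**
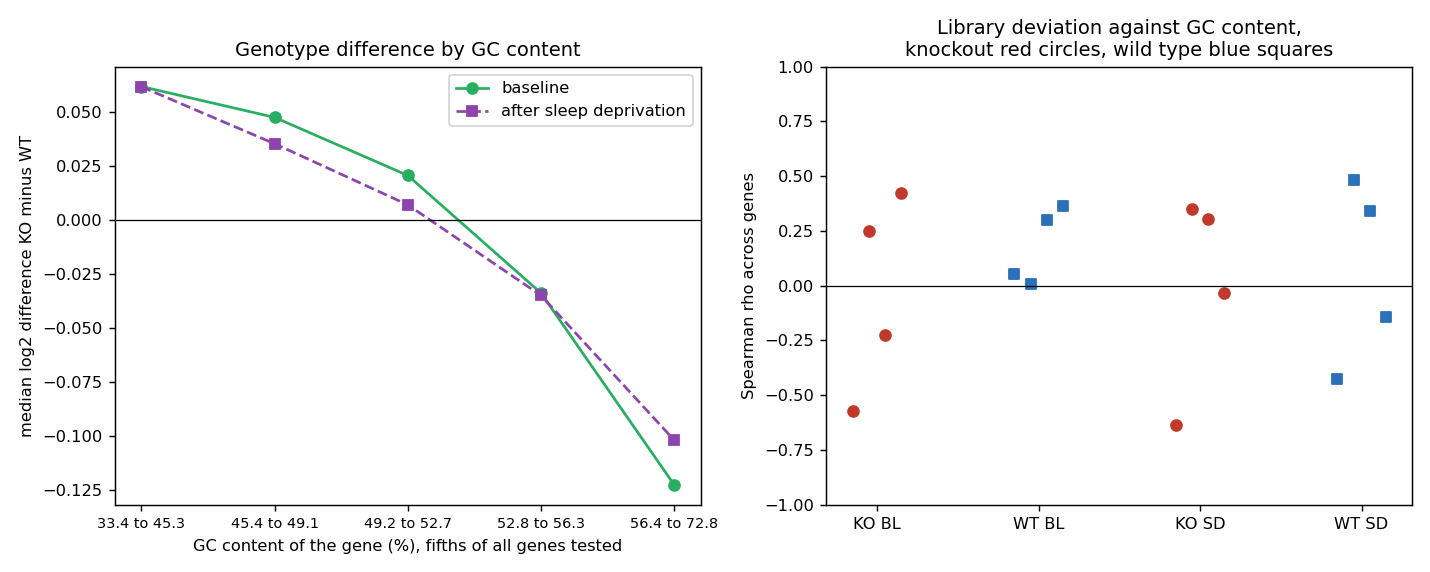
Left, median log2 difference KO minus WT (y axis) in 5 bins of genes by GC content (x axis), at baseline and after sleep deprivation. Right, Spearman correlation across genes between GC content and the library's deviation from the average library, with 1 point per library and knockout left of wild type in each condition. The median is 0.06 in the bin of lowest GC content and -0.11 in the highest, and libraries of both genotypes lie on both sides of zero.

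Genes close to Kcnma1 were examined because a targeted locus carries its flanking chromosome with it. Within 10 Mb on chromosome 14, 120 genes were tested and 3 had an unadjusted p under 0.05 (2.5%, against 3.33% of all genes). They were Mss51 (0.54 ± 0.23), Tnnc1, the gene of a troponin C (0.37 ± 0.17), and Arhgap22 (-0.27 ± 0.12, SE), which was at -0.13 with the GC trend removed. On the whole chromosome it was 3.74% of 481 genes, and on the other chromosomes from 2.04% to 4.25%.

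The authors' deposited table lists tests of KO against WT within each condition. At baseline it has 3 genes with a false discovery rate under 0.05, Gm6768, Tmem260 and Stbd1, and after sleep deprivation 0. Its log2 ratio puts WT over KO, and for Stbd1 the authors' deposited table gives -0.59 at baseline, with a false discovery rate of 1.27e-07, and -0.16 after sleep deprivation, with a false discovery rate of 0.9999. The normalized counts of Stbd1 averaged 124.7 ± 54.6 in KO_BL and 29.2 ± 2.83 in WT_BL (SD, n = 4 each), so the deposited ratio is much nearer to zero than the ratio of these means. How it was computed is not given in the labels. Gm6768 was below the filter of the pooled comparison. Tmem260, on chromosome 14, was tested there and not called, and its deposited log2 ratio was -0.36 at baseline and 0.04 after sleep deprivation. Gm15446, a gene named after its values were seen, had the largest pooled difference, 2.71 ± 0.99 on the log2 scale. Its normalized counts were 536.5, 435.8, 235.8 and 226.1 in KO_BL 1 to 4, against 10.9, 11.4, 224.4 and 13.97 in WT_BL 1 to 4. They were 330.6, 468.5, 525.1 and 18.5 in KO_SD 1 to 4, against 577.3, 243.3, 9.9 and 6.98 in WT_SD 1 to 4. Libraries of both genotypes thus fell into a low and a high range, and the adjusted limma p was 0.977.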

How the data were processed

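The deposited tables are 4 sheets with 1 column per library and measure, and values of 2 of them were used. The values are normalized counts, a signal in which the authors divided each gene's count by 1 factor per library (header and values). FPKM values, the GC fraction and the authors' log2 ratio, p-value and false discovery rate are as deposited. A further 80 per-sample columns were not used. RSEM 1.2.19, edgeR, mm10 and GRCm38 appear in the submitters' processing notes. The sources used here do not give strandedness.

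Genotype was tested in limma 3.58.1 (R 4.3.3) with trend and robust steps on log2(normalized count + 1), with sleep condition and genotype as terms, two-sided, with Benjamini-Hochberg adjustment at 0.05. This scale understates the change of low genes. A fit with a product term gave the interaction and the values per condition. Whole reads were recovered from the step of each library (100% whole within 0.1 read up to 20 reads), for edgeR 4.0.16, DESeq2 1.42.0 and voom as alternatives. Replicates differed by at least 7.94 in chi-square per degree of freedom, so each was kept as 1 sample. List values are counts and medians without a test, and a library's list deviation averages its members' log2 distance to the mean of all libraries. Fits were tested on simulated data.

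Members, the 35 lists and tests were chosen with earlier results of these data known. The rule names BK subunits, called genes, otherwise the 20 smallest p without placeholder symbols, up to 3 members per list, genes within 10 Mb of Kcnma1 at an unadjusted p under 0.05, and 3 genes of smallest interaction p. Gene positions come from GENCODE M21 (22647 of 22880 identifiers matched) and promoter windows from RefSeq. Libraries are the replicates. The labels do not say outright that each is a separate animal, so p-values measure only the spread between these samples.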

Additional observations from a re-analysis of the deposited data

Results flagged for a closer look

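In 17 of 284 groups of 4 libraries, over 71 genes, the highest or lowest library lay far from the other 3 by Dixon's criterion, and chance alone flags about 1 in 20. Libraries of KO far from the rest of their group were KO_BL 3 for Stbd1 (206.5 normalized counts, high) and Vip (1189, high), KO_BL 4 for Prelp (201.7, low), KO_BL 1 for Ttr (1017, high), KO_SD 4 for Ddn (18110, high), KO_SD 2 for Omd (19.6, high) and KO_SD 1 for Tnnc1 (77.6, low). Libraries of WT were WT_SD 3 for Scg2 (6890, high), WT_SD 4 for Adcyap1 (245.8, low), Ddn (16250, low) and Ttr (5435, high), WT_SD 2 for Gpc2 (53.4, low) and Slc35e3 (381.3, low), and WT_BL 1 for Gad1 (7515, high), Pdyn (798.6, high) and Kcnn1 (315.7, low), with WT_BL 3 for Gm15446 (224.4, high). Pdyn, a striatal neuropeptide gene, and Ttr, a choroid plexus gene, are markers of tissue next to the cortex. Without WT_BL 1 the log2 difference of Gad1 was 0.27, against 0.25 with it.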

How the results depend on the processing

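The number of genes called for genotype was 0 in limma and in 35 of 37 alternatives, and 6 with DESeq2 and 2 with a weight per library. Leaving out any 1 library gave 0, from lowest to highest, and the smallest adjusted p was 0.0678 without WT_SD replicate 1. The interaction count was 0 under each alternative run, leave-one-out included. For sleep deprivation 1692 genes became 4218 with a weight per library, 296 with the striatal deviation as a covariate, 2652 with the GC trend removed and 2595 with GC trend and replicate block, and 1033 to 2337 when 1 library was left out (1082 without KO_BL replicate 3, 1097 without WT_BL replicate 1, 1082 without WT_BL replicate 3, 1033 without WT_SD replicate 3). Same-numbered libraries correlated above 0.1 in 9 of 24 pairs, and best with their own number in 8. The numbers were therefore not taken as pairs. Libraries numbered 1 correlated in every pair of groups, from 0.201 to 0.445, while the other numbers ran from -0.418 to 0.315. What the libraries numbered 1 share was not tested. The replicate block gave 0, 0 and 1984 calls for genotype, interaction and sleep deprivation. With it 726 genes had an unadjusted limma p under 0.05 for genotype, against 475 without it.

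Of 71 genes followed, 64 kept their direction under every alternative run, and 8 values of 6 genes passed the threshold, all with DESeq2 or library weights. Many of the 71 genes were chosen for a small p in these same libraries. The 7 that turned had small differences. With 1 library left out Kcnma1 ran from -0.13 to 0.21, Kcnmb2 from -0.0356 to 0.098, Kcnmb4 from -0.14 to 0.0039, Kcnn3 from -0.13 to 0.0155, Kcnt1 from -0.0692 to 0.0937 and Kcnt2 from -0.056 to 0.11. Without KO_BL 1, KO_SD 1 and KO_SD 4 Kcnmb2 was -0.0469, Kcnmb4 0.0786, Lingo1 0.0382 and Kcnt1 0.17. With the GC trend removed, with or without the block, Kcnmb2 was -0.027, Kcnt1 0.0767 and Kcnt2 -0.0322. Kcnt1 was 0.0162 with edgeR, 0.0155 with DESeq2 and 0.15 with library weights. The cause was not tested. Depth limits genes near 10 normalized counts, where a few reads set the value. The GC alternatives were chosen after seeing the data.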
